A study of Mus musculus with 20 samples.

Results

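The secreted Wnt ligands, their Frizzled receptors and their secreted antagonists were followed in brain tissue taken 7 weeks after a stroke. Members were the protein-coding genes of the mouse annotation whose symbols name a Wnt ligand (Wnt with a number), a Frizzled receptor (Fzd with a number) or a secreted antagonist (Sfrp or Dkk with a number, Frzb, Wif1). This rule found 39 genes, all of them present among the 46078 genes of the count tables: 19 ligands, 10 receptors and 10 antagonists. Of these, 33 (15 ligands, 10 receptors and 8 antagonists) had at least 10 counts in at least 5 libraries and were tested with 16857 genes in all. The rule used names and no measured value of any comparison.

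All mice were wild type, of strain C57BL/6J and aged 18 months, and all had received the stroke, in which the distal branch of a cerebral artery is closed and the animal then kept in low oxygen. Beginning 1 week later they were injected under the skin 3 times per week for 6 weeks, either with PBS as vehicle or with 4 g/kg HPBCD (2-hydroxypropyl-β-cyclodextrin, a cyclic sugar that takes up lipids). RNA was sequenced from the peri-infarct region, dissected after the infarct itself had been removed, and from the matching contralateral region of the same animals. This gave 20 libraries in 4 groups of 5: vehicle contralateral, vehicle peri-infarct, HPBCD contralateral and HPBCD peri-infarct. The animals were male, contralateral tissue came from brains with a stroke, and no unoperated group was analysed here. Treatment was read from the sample titles alone, so the direction of every difference between HPBCD and vehicle libraries rests on those titles, and vehicle or HPBCD mice below means mice so labelled. Whether the titles of the treatments were exchanged could not be checked here, and if they were, every such direction would be inverted. Cell markers also differed between the libraries so labelled. In the peri-infarct region, 5 of 8 reactive astrocyte markers were called higher in libraries labelled HPBCD (median log2 fold change 1.01), against 12% of all genes. Of the neuron markers, 6 of 8 were called lower there (median -0.64), against 8.48% of all genes. Other marker lists varied in the same comparison. Called higher were 9 of 10 fibroblast and meninges, 5 of 7 ependyma and 1 of 8 microglia and macrophage markers. Of the striatal neuron markers 0 of 8 were called.

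Wnt ligands are lipid-modified secreted glycoproteins that bind Frizzled receptors together with co-receptors. In the canonical branch, binding of Frizzled and Lrp5 or Lrp6 keeps β-catenin from being degraded, and β-catenin then acts in the nucleus with factors of the TCF/LEF family. Other branches act through Ror and Ryk co-receptors or through the planar polarity genes. Secreted frizzled-related proteins (Sfrp genes and Frzb) and Wif1 bind Wnt ligands outside the cell, while Dkk1, Dkk2 and Dkk4 bind Lrp5 and Lrp6. In the brain, Wnt7a and Wnt7b are known for building the blood-brain barrier, and Wnt2b and Wnt5a for roles in the developing forebrain.

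Promoter sequences are shown for 2 members on which the comparisons below turn, Fzd7 and Wnt16, which were higher in peri-infarct libraries labelled HPBCD. Each run is the 250 bases before the start of transcription in RefSeq (GRCm38.p6), read 5′ to 3′ on the strand of the gene. Capitals mark a match to 1 of 4 TCF/LEF core heptamers, which share their first 5 letters and were each searched on both strands: CTTTGAA and CTTTGAT, together with CTTTGTA and likewise CTTTGTT. The run of Fzd7 is chr1:59481897-59482146 and that of Wnt16 chr6:22287977-22288226, both on the plus strand.
Fzd7: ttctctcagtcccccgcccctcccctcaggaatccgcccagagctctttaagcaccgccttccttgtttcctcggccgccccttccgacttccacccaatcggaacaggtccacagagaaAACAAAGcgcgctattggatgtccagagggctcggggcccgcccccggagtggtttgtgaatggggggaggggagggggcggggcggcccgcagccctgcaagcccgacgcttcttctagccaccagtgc
Wnt16: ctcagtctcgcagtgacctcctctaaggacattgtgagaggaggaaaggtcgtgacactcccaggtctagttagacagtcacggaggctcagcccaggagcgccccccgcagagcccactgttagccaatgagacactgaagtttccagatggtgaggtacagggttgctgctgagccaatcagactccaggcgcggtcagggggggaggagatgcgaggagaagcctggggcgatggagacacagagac

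The run of Fzd7 held 1 heptamer match, AACAAAG, which is CTTTGTT on the other strand, and the run of Wnt16 held none. Among the 32851 RefSeq promoters of this length, 14.8% held at least 1 match. The promoter table held 30 starts for 27 of the 39 members, and 4 of the 30 (13.3%) held a match: those of Dkk1, Fzd7, 1 of 2 starts of Wnt11 and 1 of 3 starts of Wnt5b. A match is a run of letters and not a measured binding site. Member promoters were rich in G and C, with a median of 67.4% against 52.4% over all promoters, and a median of 21.5 CpG dinucleotides in 250 bases against 6. The run of Fzd7 was 65.2% G and C with 17 CpG, and that of Wnt16 59.2% with 9. The RefSeq start of Fzd7 lies 277 bases before the start that GENCODE gives for the gene, and for Wnt16 the sources give the same start.

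Gene counts per library were 14445021 to 22171627, with a median of 19008532. Values are given as CPM, the count of a gene relative to the total of its library after scaling by TMM factors over the 20 libraries, and a count of 3, taken as the floor of detection, corresponded to 0.135 to 0.208 CPM. A difference was called when its edgeR quasi-likelihood test had a Benjamini-Hochberg adjusted p under 0.05 over all 16857 genes. Within a group each library came from a separate animal, so p-values measure the spread between animals. Some libraries stood apart in marker genes of other tissue. Vehicle contralateral library 1 held 2690.3 summed CPM of 8 striatal neuron markers against 164 to 250 in the other contralateral libraries. HPBCD contralateral library 3 and HPBCD peri-infarct library 3 held 651 and 703 summed CPM of 7 choroid plexus markers, against 1.41 to 214 elsewhere. Without these 3 libraries, an alternative chosen after seeing the data, 5 members were called between the vehicle regions (18.2% of all genes), 21 between the HPBCD regions (45.4%), 5 between the treatments in the peri-infarct region (4.53%) and 1 for the interaction (0.463%).

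Dkk3, an atypical member of the Dickkopf family, had by far the highest level of the 39 genes, and the ligands with the highest levels were Wnt9a, Wnt7b, Wnt4 and Wnt7a. To compare genes, CPM was divided by the exon length of the gene in kilobases and averaged over the 20 libraries. Dkk3 was at 98.3 CPM per kb, and among the other antagonists Sfrp4 was at 7.801, Frzb at 5.98 and Sfrp1 at 3.68. The place of Sfrp4 came from the HPBCD peri-infarct group, at 28.3 ± 16.4 CPM per kb (mean ± SD, n = 5). In the vehicle contralateral, vehicle peri-infarct and HPBCD contralateral groups it was at 0.2898 ± 0.148, 1.94 ± 3.23 and 0.663 ± 0.525, below the group means of Frzb (6.996 ± 2.05, 5.17 ± 1.46 and 7.73 ± 1.08) and of Sfrp1 (2.75 ± 0.509, 3.89 ± 0.526 and 2.44 ± 0.529). Among the ligands the mean levels were 6.79 CPM per kb for Wnt9a, 6.53 for Wnt7b, 5.96 for Wnt4, 4.66 for Wnt7a and 4.02 for Wnt10a. The remaining tested ligands lay between 0.187 (Wnt11) and 1.93 (Wnt5a) CPM per kb. The receptors spanned a narrower range, from 0.538 CPM per kb for Fzd5 to 3.37 for Fzd1, 4.72 for Fzd7 and 5.04 for Fzd2. The order of the leading ligands depended on the group: in the vehicle contralateral group Wnt9a was at 6.84 ± 1.698 (mean ± SD, n = 5), Wnt4 at 6.52 ± 1.502 and Wnt10a at 5.89 ± 1.302 CPM per kb, which overlap, whereas in the vehicle peri-infarct group Wnt7b led at 9.71 ± 1.25 and Wnt10a was at 2.15 ± 0.552.

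**Figure D1:**
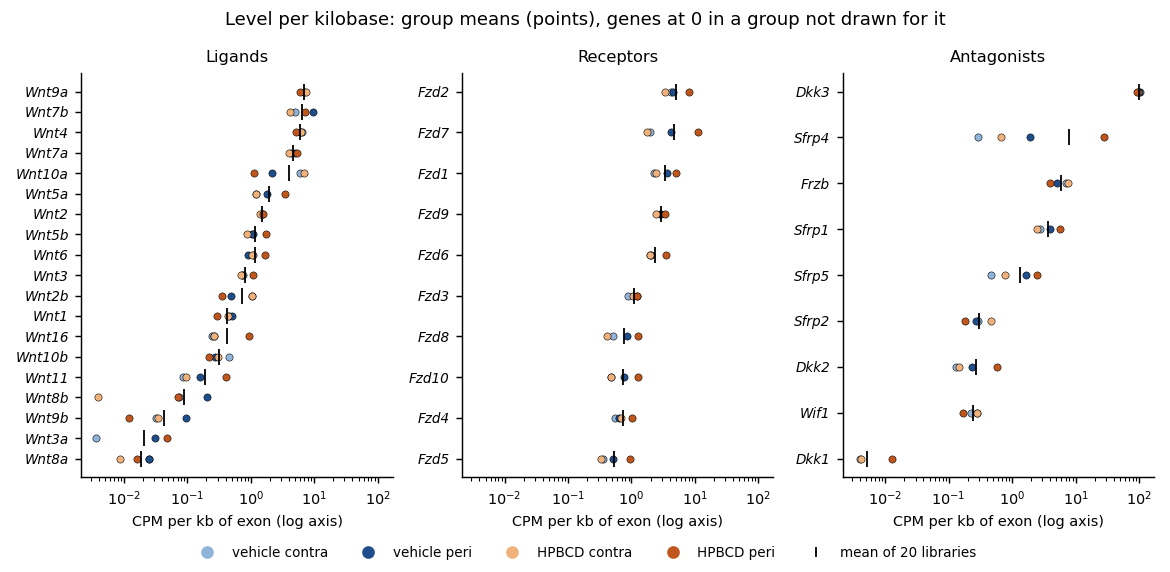
Level of each member with a count, in CPM per kb of exon on a log axis; points are the means of the 4 groups of 5 libraries and the bar is the mean of 20 libraries. Dkk3 stands at 98.3 CPM per kb with its 4 group means close together, while the group means of Sfrp4 spread most among the antagonists.

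Sorted by comparison, the members' calls were as follows. In vehicle mice 7 of 33 members (21.2%) differed between the peri-infarct and the contralateral region, against 19.4% of all genes tested (10.2% higher and 9.23% lower). Fzd7, Fzd1, Sfrp1, Sfrp5 and Wnt7b were higher in the peri-infarct region, and Wnt10a and Wnt2b were lower. In HPBCD mice 22 members (66.7%) differed, 18 higher and 4 lower, against 53.4% of all genes (29.9% higher, 23.5% lower). When the treatments were compared in the peri-infarct region, 12 members (36.4%) were called, against 20.5% of all genes. Libraries labelled HPBCD were higher for 11 of them (12% of all genes) and lower for 1 (8.48%). In the contralateral region 0 members were called by edgeR or by DESeq2, with 4 at an unadjusted p under 0.05, and edgeR called 0.0% of all genes there (7.88% at an unadjusted p under 0.05). The region by treatment interaction, which tests whether the region difference is the same under both treatments, was called for 3 members (9.09%) against 9.34% of all genes (4.99% more positive and 4.35% more negative in HPBCD mice). Groups did not overlap for 5 members between the vehicle regions, 3 higher and 2 lower, against 13.0% of all genes (6.62% and 6.38%). In the regions of HPBCD mice this held for 20 members, 16 higher and 4 lower, against 41.4% (23.7% and 17.7%), and between the treatments in the peri-infarct region for 7, 6 higher and 1 lower, against 13.1% (7.25% and 5.83%). No member was free of overlap between the contralateral groups, where 1.44% of all genes were (0.902% and 0.54%). The share of members called in vehicle mice was thus close to that of all genes. For the interaction it depended on the fit: with the animal as a replicate block, 7 members (21.2%) were called against 10.8% of all genes, and with DESeq2 8 (24.2%) against 14.9%. The median log2 fold change of the 33 members was 0.14 in vehicle mice, 0.68 in HPBCD mice and 0.52 between the treatments in the peri-infarct region, where the medians of all genes were 0.02, 0.04 and 0.01. In bulk tissue fewer cells of a type and less RNA per cell cannot be told apart.

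**Figure D2:**
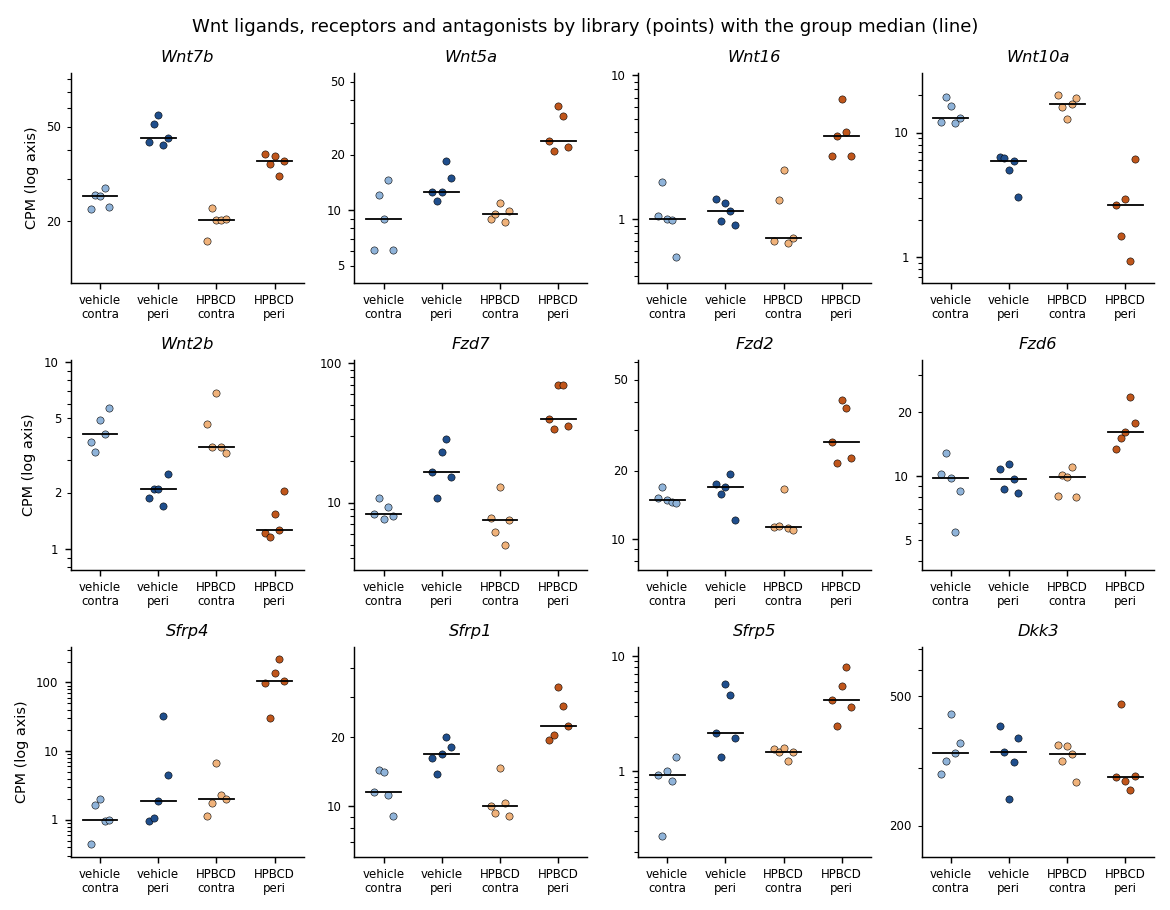
CPM on a log axis of 12 members in each library (points, 5 per group) with the group median (line); contra is the contralateral and peri the peri-infarct region. Wnt7b is higher in both peri-infarct groups, Wnt10a and Wnt2b are lower in both, and Wnt16, Fzd2 and Fzd6 are raised in the HPBCD peri-infarct group with no overlap against the vehicle peri-infarct group.

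Among the ligands, Wnt7b was the member with the smallest adjusted p in vehicle mice. It was at 22.5, 25.7, 25.5, 27.5 and 22.8 CPM in the 5 vehicle contralateral libraries and at 43.2, 51.6, 56.3, 41.9 and 44.8 CPM in the vehicle peri-infarct libraries. Every peri-infarct library lay above every contralateral library, and all 5 animals showed the difference. The log2 fold change was 0.93 ± 0.10 (SE, edgeR adjusted p = 0.00123), a 1.899-fold level. In HPBCD mice Wnt7b was at 16.4, 22.7, 20.3, 20.3 and 20.5 CPM in the contralateral and at 38.6, 34.7, 37.8, 30.9 and 36.1 CPM in the peri-infarct libraries, again without overlap, with a log2 difference of 0.83 ± 0.10 (SE, edgeR adjusted p = 1.73e-05). Wnt7b was also the only member called lower in peri-infarct libraries labelled HPBCD than in those labelled vehicle, by -0.42 ± 0.10 (SE, edgeR adjusted p = 0.0212) on the log2 scale with no overlap. That call ended without vehicle peri-infarct library 2 or HPBCD peri-infarct library 3 (log2 fold change -0.44 to -0.39, adjusted p 0.051 to 0.0544). A gene on the opposite strand, AU022754, overlaps 324 bases of Wnt7b exon, and the strand option of the counting was not stated.

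Wnt7a, its closest relative, was called higher between the regions of HPBCD mice. It was at 13.4, 14.8, 13.5, 13.4 and 13.8 CPM in the vehicle contralateral and 16.6, 13.7, 18.2, 15.2 and 15.5 CPM in the vehicle peri-infarct libraries, which overlapped (log2 fold change 0.18, edgeR adjusted p = 0.187). In HPBCD mice it was at 12.1, 11.7, 11.8, 13.8 and 13.7 and 14.8, 21.6, 14.98, 18.7 and 14.2 CPM, without overlap, and the log2 fold change was 0.43 ± 0.14 (SE, edgeR adjusted p = 0.0203). With no filter on low counts the latter call was lost (0.35 (adjusted p = 0.0624)).

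Wnt10a and Wnt2b fell in the peri-infarct region under both treatments. Wnt10a was at 12.1, 19.4, 16.2, 11.97 and 13 CPM in vehicle contralateral and at 6.33, 6.26, 4.97, 5.89 and 3.07 CPM in vehicle peri-infarct libraries. The HPBCD contralateral libraries held 19.9, 16.1, 12.8, 17.1 and 19.02 CPM and the HPBCD peri-infarct libraries 2.65, 1.47, 2.91, 0.939 and 6.13 CPM. No peri-infarct library reached a contralateral library of its treatment, and the level was lower in all 10 animals. The log2 fold changes were -1.47 ± 0.21 (SE, edgeR adjusted p = 0.00211) in vehicle and -2.58 ± 0.36 (SE, edgeR adjusted p = 5.55e-05) in HPBCD mice, the latter 5.99-fold lower. Wnt2b was at 3.74, 3.33, 4.92, 4.13 and 5.66 CPM in vehicle contralateral and 1.89, 2.104, 2.09, 1.697 and 2.54 CPM in vehicle peri-infarct libraries, a log2 difference of -1.09 ± 0.19 (SE, edgeR adjusted p = 0.0038). In HPBCD mice the values were 4.65, 3.53, 6.83, 3.504 and 3.27 CPM contralateral and 1.22, 1.17, 1.55, 1.27 and 2.06 CPM peri-infarct, a log2 difference of -1.58 ± 0.25 (SE, edgeR adjusted p = 0.000189). As for Wnt10a, the regions did not overlap and all 10 animals were lower in the peri-infarct region. Between the treatments in the peri-infarct region neither was called (Wnt10a -0.91, adjusted p = 0.129; Wnt2b -0.51, adjusted p = 0.105). Wnt10a was called there without HPBCD peri-infarct library 5, at -1.40 (adjusted p = 0.0319), and in a fit of all 20 libraries, at -0.90 (adjusted p = 0.0437). The sums of 8 cortical neuron markers were also lower in the peri-infarct groups. They were 4032 to 5039 and 4269 to 5582 CPM in the vehicle and HPBCD contralateral groups. In the peri-infarct groups they were 2769 to 3507 and 1166 to 2327 CPM. Of these markers 3 of 8 were called in vehicle and 7 of 8 in HPBCD mice, all lower, against 9.23% and 23.5% of all genes. Within a group the sums and the 2 genes did not always go together. HPBCD peri-infarct library 2 had the highest sum of its group (2327 CPM) and the lowest Wnt2b (1.17 CPM). Library 5, at 1950 CPM, held the highest Wnt10a and Wnt2b, while library 4 had the lowest sum and the lowest Wnt10a. The part of these markers' cells in the fall of Wnt10a and Wnt2b was not tested.

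Wnt16 rose in the peri-infarct region of HPBCD mice, and its region difference was called as unequal between the treatments. It was low in the other three groups: 1.05, 1.799, 1.01, 0.979 and 0.542 CPM in vehicle contralateral, 1.38, 0.975, 1.3, 1.13 and 0.9101 CPM in vehicle peri-infarct and 0.699, 1.36, 2.21, 0.685 and 0.734 CPM in HPBCD contralateral libraries. The HPBCD peri-infarct libraries held 2.74, 3.75, 6.88, 4.03 and 2.73 CPM, all above every library of the other groups. The log2 fold change between regions was 0.07 in vehicle mice (adjusted p = 0.898) and 1.83 ± 0.37 (SE, edgeR adjusted p = 0.00111) in HPBCD mice. Between the treatments in the peri-infarct region it was 1.81 ± 0.28 (SE, edgeR adjusted p = 0.0128), a 3.52-fold level, and this call was kept under all 16 alternatives. The interaction was 1.74 ± 0.50 (SE, edgeR adjusted p = 0.0362). That interaction was lost without any 1 of 12 of the 20 libraries (vehicle peri-infarct 1, 2 and 5, vehicle contralateral 1, 2 and 3, HPBCD peri-infarct 3 and 4, HPBCD contralateral 1, 2, 4 and 5), with log2 values of 1.47 to 1.82 and adjusted p of 0.0515 to 0.0739.

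Wnt5a, the main ligand of the Ror co-receptors, and Wnt5b rose together in HPBCD peri-infarct libraries. Wnt5a was at 6.05, 12.2, 8.95, 14.6 and 6.06 CPM in vehicle contralateral and 12.5, 11.2, 12.5, 18.6 and 15.04 CPM in vehicle peri-infarct libraries, which overlapped (log2 fold change 0.53, adjusted p = 0.149). In HPBCD mice it was at 8.94, 9.59, 10.9, 8.61 and 9.88 CPM contralateral and 23.7, 21.01, 37.1, 32.7 and 22.2 CPM peri-infarct, without overlap. The log2 fold change was 1.51 ± 0.16 (SE, edgeR adjusted p = 6.29e-06) between those regions and 0.96 ± 0.18 (SE, edgeR adjusted p = 0.0131) between the treatments in the peri-infarct region, where the groups did not overlap either. Gm2670 overlaps 358 bases of Wnt5a exon on the opposite strand. Wnt5b was lower in level, at 2.92, 3.38, 2.13, 1.795 and 3.45 CPM in vehicle contralateral and 3.01, 1.95, 2.83, 3.91 and 2.73 CPM in vehicle peri-infarct libraries. The HPBCD libraries held 2.298, 2.02, 3.04, 2.44 and 1.81 CPM contralateral and 4.797, 3.45, 5.77, 4.86 and 3.78 CPM peri-infarct, which did not overlap (log2 fold change 0.97 ± 0.20 (SE, edgeR adjusted p = 0.00107)). Between the treatments in the peri-infarct region Wnt5b overlapped and differed by 0.65 ± 0.21 (SE, edgeR adjusted p = 0.0467), a call that ended when any 1 of 8 libraries was left out (adjusted p 0.057 to 0.117, log2 fold change 0.53 to 0.70; the exceptions were vehicle peri-infarct 4 and HPBCD peri-infarct 2).

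Wnt11 was scarce and had a single high vehicle library. It held at least 10 counts in 7 libraries, the 5 HPBCD peri-infarct libraries and 1 in each vehicle group, so it passed the count minimum through the group in which it was high, and it is among the 22 members called between the regions of HPBCD mice. It was at 0.3302, 0.436, 0.652, 0.272 and 0.0985 CPM in vehicle contralateral and 1.84, 0.462, 0.339, 0.283 and 0.335 CPM in vehicle peri-infarct libraries, and library 1 of the latter stood apart. In HPBCD mice it was at 0.2498, 0.404, 0.621, 0.152 and 0.508 CPM contralateral and 1.304, 2.38, 1.696, 2.54 and 0.575 CPM peri-infarct. Library 5 of the peri-infarct group overlapped the contralateral range, and the log2 fold change was 2.11 ± 0.45 (SE, edgeR adjusted p = 0.00153). Between the treatments in the peri-infarct region it was 1.37 (adjusted p = 0.0996), and without vehicle peri-infarct library 1 it was 2.24 (adjusted p = 0.0336). Gm8398 overlaps 364 bases of Wnt11 exon on the opposite strand.

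The abundant ligands Wnt9a and Wnt4 were called in no comparison. Wnt9a was at 14.4, 23.6, 24.8, 29.9 and 21.3 CPM in vehicle contralateral and 19.5, 26.6, 14.9, 25.5 and 27.4 CPM in vehicle peri-infarct libraries. It was at 22.5, 23.7, 23.2, 29.6 and 25.7 CPM in HPBCD contralateral and 21.3, 10.6, 22.9, 22.3 and 22.2 CPM in HPBCD peri-infarct libraries, so that all 4 groups overlapped. Its log2 fold change between regions was -0.016 in vehicle mice (95% interval -0.40 to 0.37) and -0.33 in HPBCD mice (95% interval -0.66 to 0.0028). Wnt4 was at 16.5, 31.95, 31.4, 29.3 and 27.6 CPM in vehicle contralateral and 24.4, 27.3, 23.7, 27.6 and 23.4 CPM in vehicle peri-infarct libraries. In HPBCD mice it was at 33.2, 28.9, 20.7, 20.3 and 27.1 CPM contralateral and 24.2, 22.3, 24.9, 16.2 and 19.2 CPM peri-infarct. The log2 fold changes between regions were -0.13 (95% interval -0.43 to 0.17) and -0.28 (95% interval -0.59 to 0.022). Vehicle contralateral library 1, which held the striatal markers, was the lowest contralateral library for both genes.

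The other tested ligands, Wnt1, Wnt2, Wnt3, Wnt6 and Wnt10b, were called by edgeR in no comparison and lay between 0.226 and 6.66 CPM. Wnt6 was called by DESeq2 between the treatments in the peri-infarct region, at 0.89 (adjusted p = 0.0436). In edgeR it was called there without HPBCD peri-infarct library 5, at 1.08 (adjusted p = 0.0461), and between the regions of HPBCD mice without that library, at 0.85 (adjusted p = 0.0107), or without HPBCD contralateral library 1, at 0.90 (adjusted p = 0.022). The log2 fold change of Wnt2 between regions was -0.02 in vehicle and 0.13 in HPBCD mice. Wnt6 and Wnt3 had log2 fold changes of 0.68 (adjusted p = 0.0633) and 0.60 (adjusted p = 0.0798) between the regions of HPBCD mice, and Wnt1 and Wnt10b of -0.52 and -0.50. Wnt6 and Wnt10a are neighbours, 6.19 kb apart on chromosome 1 (74771892 to 74785322 and 74791516 to 74804179 in GRCm38), and their log2 fold changes in HPBCD mice had opposite signs. Wnt10b and Wnt1 are 11.7 kb apart on chromosome 15 (98770712 to 98778150 and 98789857 to 98793837), and neither was called. Of the ligands below the count minimum, Wnt8a and Wnt3a were at or below 0.66 CPM and Wnt9b at or below 0.77 CPM in every library. Wnt8b was at or below 0.337 CPM in 18 libraries, with 53 counts (2.99 CPM) in vehicle peri-infarct library 3 and 1.27 CPM in vehicle contralateral library 1.

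All 10 Frizzled receptors were tested, and 8 of them rose in the peri-infarct region of HPBCD mice. In both treatments the log2 fold change between regions was positive for 10 of 10 receptors, with a median of 0.48 in vehicle and 1.18 in HPBCD mice. In vehicle mice those of Fzd6, Fzd9 and Fzd10, which were not called, turned negative under 2, 3 and 1 of 17 alternatives. The share of all genes called higher between the regions of HPBCD mice was 29.9%. In vehicle mice 2 receptors were called higher (Fzd7 and Fzd1), against 10.2% of all genes. Between the treatments in the peri-infarct region 6 receptors were called, all higher in libraries labelled HPBCD, where 12% of all genes were, with a median log2 fold change of 0.68 over the 10. Without HPBCD peri-infarct library 3 the receptors called there were 3, Fzd2, Fzd6 and Fzd7. Of the receptors, 7 did not overlap between the regions of HPBCD mice, all higher, where 23.7% of all genes did not overlap and were higher.

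Fzd7 had the largest receptor difference in each of the comparisons in which receptors were called. It was at 8.26, 10.7, 7.65, 9.302 and 8.07 CPM in vehicle contralateral and 16.6, 10.9, 23.2, 28.8 and 15.4 CPM in vehicle peri-infarct libraries, which did not overlap, a log2 difference of 1.09 ± 0.23 (SE, edgeR adjusted p = 0.00838). HPBCD libraries held it at 7.79, 6.16, 12.9, 4.95 and 7.56 CPM contralateral and 39.9, 34, 70.3, 70.1 and 35.4 CPM peri-infarct, a log2 difference of 2.66 ± 0.28 (SE, edgeR adjusted p = 7e-06) or a 6.33-fold level. Every HPBCD peri-infarct library also lay above every vehicle peri-infarct library, with a log2 difference of 1.39 ± 0.29 (SE, edgeR adjusted p = 0.0149). In the contralateral region the treatments overlapped (log2 fold change -0.17, adjusted p = 0.881). The interaction was 1.56 ± 0.39 (SE, edgeR adjusted p = 0.0234), and it was called without each of the 20 libraries in turn. It was not called once the 3 libraries with the highest striatal or choroid plexus sums were all left out (1.67 (adjusted p = 0.0524)), an alternative chosen after seeing the data, under which 78 genes in all were called against 1575.

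Fzd2 rose in the peri-infarct region of HPBCD mice, and its region difference was unequal between the treatments. It was at 15.2, 16.96, 14.8, 14.5 and 14.4 CPM in vehicle contralateral and 17.4, 15.9, 16.9, 19.3 and 12.1 CPM in vehicle peri-infarct libraries, which overlapped (log2 fold change 0.089, 95% interval -0.15 to 0.33, adjusted p = 0.644). The HPBCD values were 11.3, 11.5, 16.6, 11.2 and 11 CPM contralateral, with library 3 apart, and 26.8, 21.7, 40.8, 37.8 and 22.8 CPM peri-infarct, without overlap (log2 fold change 1.28 ± 0.19 (SE, edgeR adjusted p = 0.000102)). The peri-infarct groups did not overlap between the treatments either (log2 fold change 0.87 ± 0.19 (SE, edgeR adjusted p = 0.0167)). The interaction was 1.18 ± 0.24 (SE, edgeR adjusted p = 0.0156), and Fzd2 was the member whose interaction was called under all 26 alternatives.

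Fzd6 gave a like picture between the treatments. It was at 10.2, 12.9, 9.78, 5.44 and 8.52 CPM in vehicle contralateral, 10.8, 8.72, 11.4, 9.71 and 8.29 CPM in vehicle peri-infarct and 8.09, 10.1, 9.87, 11.04 and 7.96 CPM in HPBCD contralateral libraries. The HPBCD peri-infarct libraries, at 13.4, 15.1, 16.1, 23.5 and 17.8 CPM, lay above all others. Its log2 fold change was 0.87 ± 0.16 (SE, edgeR adjusted p = 0.000437) between the regions of HPBCD mice and 0.80 ± 0.15 (SE, edgeR adjusted p = 0.0131) between the treatments in the peri-infarct region, and the interaction just missed the threshold in edgeR (0.80, adjusted p = 0.0544). DESeq2 called it, at 0.80 (adjusted p = 0.0283), as did edgeR without vehicle peri-infarct library 3, vehicle contralateral library 4 or HPBCD peri-infarct library 1 or 2 (adjusted p 0.0169 to 0.0351). Gm26704 overlaps 152 bases of Fzd6 exon on the opposite strand.

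Fzd1 rose in both treatments. It was at 6.33, 12.1, 9.13, 12.6 and 8.03 CPM in vehicle contralateral and 15.01, 12.2, 18.8, 18.9 and 12.4 CPM in vehicle peri-infarct libraries, a difference of 0.67 ± 0.20 (SE, edgeR adjusted p = 0.0393) with slight overlap and the same direction in 5 of 5 animals. The call ended without any 1 of 6 libraries (vehicle peri-infarct 1, 3 and 4, vehicle contralateral 1, 3 and 5), where the log2 fold change was 0.56 to 0.67 and the adjusted p 0.0569 to 0.0969. Its HPBCD levels were 9.04, 9.99, 14.8, 8.07 and 8.41 CPM contralateral, with library 3 the highest, and 19.2, 17.7, 27.5, 24.7 and 18.1 CPM peri-infarct, without overlap (log2 fold change 1.09 ± 0.18 (SE, edgeR adjusted p = 0.000261)). Between the treatments it was not called by edgeR in the peri-infarct region (0.47, adjusted p = 0.0673). It was called by DESeq2, at 0.46 (adjusted p = 0.043), and without vehicle peri-infarct library 3, at 0.55 (adjusted p = 0.0385), or HPBCD peri-infarct library 2, at 0.52 (adjusted p = 0.0439).

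Fzd8, Fzd5 and Fzd10, which are less abundant, were called between the regions of HPBCD mice. Fzd8 was at 2.31, 2.07, 2.79, 4.896 and 3.25 CPM in vehicle contralateral and 3.93, 4.52, 6.16, 6.22 and 4.74 CPM in vehicle peri-infarct libraries (log2 fold change 0.72, adjusted p = 0.0539), and at 1.95, 2.07, 3.11, 3.28 and 1.98 and 7.83, 5.89, 6.69, 9.44 and 7.57 CPM in the HPBCD regions, without overlap (1.61 ± 0.20 (SE, edgeR adjusted p = 2.17e-05)). The vehicle difference of Fzd8, positive in 5 of 5 animals, just missed the threshold and passed it with the animal as a replicate block, at 0.76 (adjusted p = 0.0276), with DESeq2, at 0.71 (adjusted p = 0.0234), and in a fit of all 20 libraries, at 0.74 (adjusted p = 0.0239). Fzd5 was at 2.15, 2.34, 3.32, 2.07 and 2.61 CPM in vehicle contralateral and 2.501, 1.898, 4.24, 4.57 and 4.69 CPM in vehicle peri-infarct libraries (0.50, adjusted p = 0.203), and at 1.45, 2.07, 3.38, 2.44 and 2.31 and 5.51, 4.21, 8.77, 7.01 and 6.85 CPM in the HPBCD regions, without overlap (1.48 ± 0.24 (SE, edgeR adjusted p = 0.000189)). Between the treatments both overlapped in the peri-infarct region and were called at 0.54 (Fzd8, adjusted p = 0.043) and 0.85 (Fzd5, adjusted p = 0.0476). Those calls were fragile. Fzd5 was lost without any 1 of 8 libraries (all but vehicle peri-infarct 3 and HPBCD peri-infarct 2, log2 fold change 0.69 to 0.96, adjusted p 0.0539 to 0.119), and Fzd8 without any 1 of 7 (all but vehicle peri-infarct 3 and 4 and HPBCD peri-infarct 2, log2 fold change 0.45 to 0.58, adjusted p 0.0675 to 0.101). Gm38058 overlaps 1233 bases of Fzd5 exon on the opposite strand. Fzd10 was at 1.05, 2.399, 1.601, 1.63 and 1.18 CPM in vehicle contralateral and 0.9697, 1.54, 6.22, 2.55 and 1.15 CPM in vehicle peri-infarct libraries, with library 3 the highest, and at 1.199, 1.36, 2.001, 1.68 and 1.41 and 3.87, 2.49, 4.51, 6.68 and 2.87 CPM in the HPBCD regions, where it did not overlap (1.42 ± 0.27 (SE, edgeR adjusted p = 0.000779)).

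Fzd4, the receptor of the vascular ligand norrin, and Fzd9 were each called in 1 comparison. Fzd4 was at 3.91, 4.03, 3.08, 4.46 and 3.25 CPM in vehicle contralateral, 5.21, 3.44, 4.63, 4.19 and 4.26 CPM in vehicle peri-infarct and 2.598, 5.05, 5.38, 6.78 and 3.56 CPM in HPBCD contralateral libraries. In HPBCD peri-infarct libraries it was at 5.39, 8.02, 8.09, 6.63 and 5.79 CPM, above every vehicle peri-infarct library (0.64 ± 0.17 (SE, edgeR adjusted p = 0.0257)), and that call ended without vehicle peri-infarct library 2, 4 or 5 or HPBCD peri-infarct library 3 (log2 fold change 0.56 to 0.63, adjusted p 0.0503 to 0.0712). Between the regions of HPBCD mice it was not called (0.55, adjusted p = 0.0651), and with the animal as a block it was (0.59 (adjusted p = 0.0174)). Fzd9 was at 4.898, 6.87, 6.58, 7.13 and 7.24 and 7.25, 5.75, 6.102, 6.83 and 8.19 CPM in the vehicle regions and at 6.04, 5.05, 6.004, 3.96 and 6.89 and 6.02, 7.05, 9.16, 7.57 and 9.29 CPM in the HPBCD regions. All groups overlapped, and the call between the regions of HPBCD mice (0.48 ± 0.17 (SE, edgeR adjusted p = 0.0295)) ended without HPBCD peri-infarct library 3, 4 or 5 or HPBCD contralateral library 2 or 4 (log2 fold change 0.38 to 0.48, adjusted p 0.0503 to 0.0945). Fzd3, at 5.87 to 21.6 CPM, was called in no comparison with all libraries and in vehicle mice without vehicle contralateral library 4 (log2 fold change with all libraries 0.47 in vehicle and 0.27 in HPBCD mice).

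**Figure D3:**
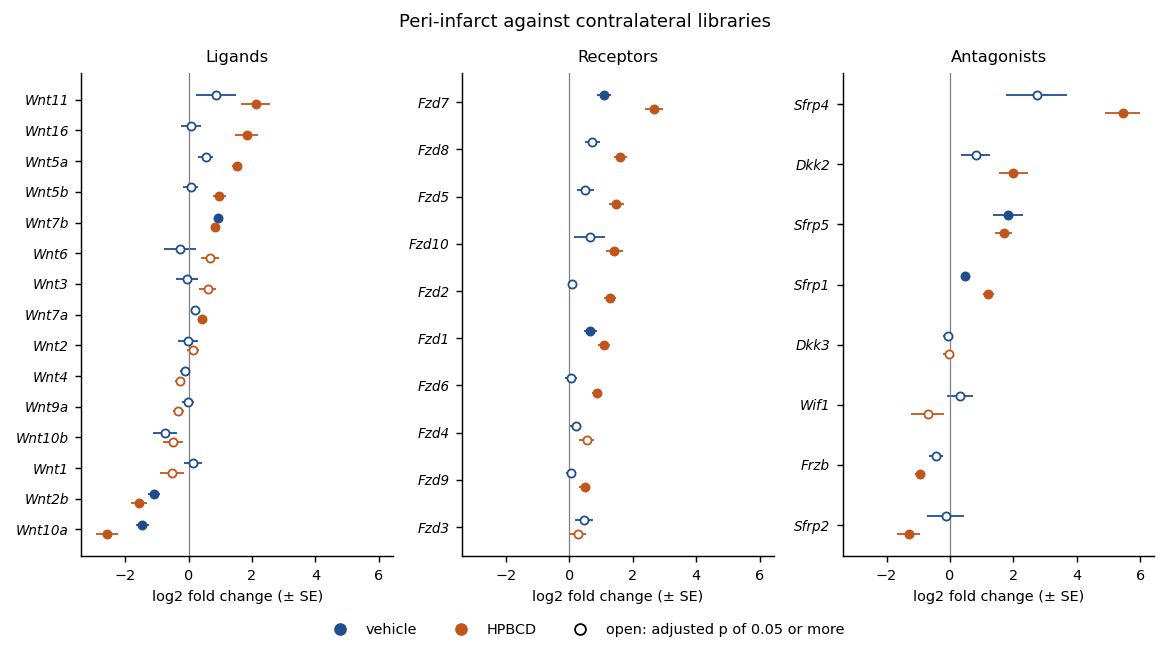
Log2 fold change (± SE) between the peri-infarct and contralateral regions of the 33 tested members, for vehicle (blue) and HPBCD mice (orange); filled points had an adjusted p under 0.05. With all libraries the 10 receptors lie to the right of 0 under both treatments, and Wnt10a, Wnt2b and Frzb lie to the left.

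Among the antagonists, Sfrp4 showed the largest difference of any member. It was at 0.4403, 1.64, 2.02, 0.979 and 0.985 CPM in vehicle contralateral and 0.9697, 1.08, 1.86, 32.1 and 4.55 CPM in vehicle peri-infarct libraries, of which library 4 stood apart. Under HPBCD it was at 1.15, 1.77, 6.63, 2.28 and 2.03 CPM contralateral, with library 3 apart, and 98.9, 30.6, 139, 218 and 105 CPM peri-infarct. The regions of HPBCD mice did not overlap, and the log2 fold change was 5.45 ± 0.55 (SE, edgeR adjusted p = 4.86e-06), a 43.7-fold level, which rose to 6.05 without HPBCD contralateral library 3. In vehicle mice it was 2.73 ± 0.95 (SE, adjusted p = 0.0631) and not called by edgeR, and without vehicle peri-infarct library 4 it was 0.79 (adjusted p = 0.342). It was called by DESeq2, at 2.70 (adjusted p = 0.0276), in the fit of all 20 libraries, at 2.77 (adjusted p = 0.0318), and without vehicle peri-infarct library 1, at 3.01 (adjusted p = 0.0436), or 2, at 3.01 (adjusted p = 0.0361). Across treatments in the peri-infarct region Sfrp4 differed by 3.85 ± 0.92 (SE, edgeR adjusted p = 0.0205), with vehicle library 4 above HPBCD library 2. This became 5.78 without vehicle peri-infarct library 4, and the call was lost without HPBCD peri-infarct library 3 (3.78 (adjusted p = 0.0519)). The interaction was not called (2.69, adjusted p = 0.157). It was called without vehicle peri-infarct library 4, at 4.64 (adjusted p = 0.0115), and with the animal as a replicate block (adjusted p = 0.0417).

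Sfrp1 and Sfrp5 rose in the peri-infarct region under both treatments. Sfrp1 was at 11.5, 14.4, 14.1, 11.2 and 9.06 CPM in vehicle contralateral and 16.2, 13.8, 16.8, 19.98 and 18.2 CPM in vehicle peri-infarct libraries, with slight overlap (0.48 ± 0.14 (SE, edgeR adjusted p = 0.0315)). That call ended with the animal as a block (0.49 (adjusted p = 0.0617)) and without any 1 of 7 libraries (vehicle peri-infarct 1, 3, 4 and 5, vehicle contralateral 1, 4 and 5, log2 fold change 0.41 to 0.50, adjusted p 0.0512 to 0.0918). In HPBCD mice Sfrp1 was at 9.99, 9.28, 14.7, 10.4 and 9.03 CPM contralateral, with library 3 apart, and 19.4, 20.6, 33.1, 27.5 and 22.3 CPM peri-infarct, without overlap (1.20 ± 0.17 (SE, edgeR adjusted p = 7.74e-05)). Across treatments in the peri-infarct region it differed by 0.52 ± 0.15 (SE, edgeR adjusted p = 0.0352) with overlap, and that call ended without any 1 of 6 libraries (vehicle peri-infarct 1, 2 and 5, HPBCD peri-infarct 3, 4 and 5, log2 fold change 0.39 to 0.56, adjusted p 0.0517 to 0.0856). Sfrp5 was at 0.936, 0.273, 1.01, 0.816 and 1.33 CPM in vehicle contralateral and 2.14, 1.33, 5.76, 4.57 and 1.96 CPM in vehicle peri-infarct libraries, without overlap (1.83 ± 0.46 (SE, edgeR adjusted p = 0.0182)). Its HPBCD values were 1.55, 1.46, 1.59, 1.22 and 1.47 CPM contralateral and 4.17, 2.49, 5.48, 8.01 and 3.59 CPM peri-infarct, also without overlap (1.69 ± 0.28 (SE, edgeR adjusted p = 0.000247)). Across treatments in the peri-infarct region Sfrp5 was not called (0.58, adjusted p = 0.319).

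Frzb and Sfrp2 fell and Dkk2 rose in the peri-infarct region of HPBCD mice. Frzb was at 18.4, 32.6, 16.96, 26.4 and 18.9 CPM in vehicle contralateral and 16.6, 11.6, 23.7, 18.4 and 13.3 CPM in vehicle peri-infarct libraries, with overlap (-0.45, adjusted p = 0.177). For the HPBCD mice the values were 28.3, 24.4, 19.9, 24.1 and 28.4 CPM contralateral and 10.9, 17.96, 13.96, 11.6 and 10.7 CPM peri-infarct, without overlap and lower in 5 of 5 animals (-0.94 ± 0.16 (SE, edgeR adjusted p = 0.000327)). Sfrp2 was scarce, at 0.165, 0.763, 0.889, 0.598 and 0.739 CPM in vehicle contralateral and 0.663, 0.821, 0, 0.6598 and 0.719 CPM in vehicle peri-infarct libraries. It was at 0.549, 1.51, 1.38, 0.838 and 0.677 CPM in HPBCD contralateral and 0.421, 0.355, 0.485, 0.276 and 0.431 CPM in HPBCD peri-infarct libraries, without overlap (-1.31 ± 0.35 (SE, edgeR adjusted p = 0.00703)), and Gm26771 overlaps 347 bases of its exon on the opposite strand. Dkk2 was at 0.936, 0.491, 0.296, 0.272 and 0.394 CPM in vehicle contralateral and 0.357, 0.513, 1.41, 1.23 and 0.766 CPM in vehicle peri-infarct libraries (0.81, adjusted p = 0.239). The same gene in HPBCD mice was at 0.3497, 0.252, 0.828, 0.381 and 0.903 CPM contralateral and 1.599, 1.52, 3.102, 3.7 and 0.91 CPM peri-infarct, where the lowest peri-infarct library was just above the highest contralateral library (2.0 ± 0.45 (SE, edgeR adjusted p = 0.00243)). In edgeR, Dkk2 was not called between the treatments in the peri-infarct region (1.33, adjusted p = 0.0563). DESeq2 called it higher in libraries labelled HPBCD, at 1.33 (adjusted p = 0.0203), as did the fit of all 20 libraries, at 1.33 (adjusted p = 0.0274), and edgeR without vehicle peri-infarct library 3 or HPBCD peri-infarct library 2 or 5 (adjusted p 0.0339 to 0.0437).

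Dkk3, the most abundant member, was called in no comparison with all libraries. It was at 289, 315, 441, 334 and 359 CPM in vehicle contralateral and 404, 338, 241, 315 and 371 CPM in vehicle peri-infarct libraries. HPBCD libraries held it at 355, 316, 350.2, 333 and 272 CPM contralateral and 282, 473, 273, 257 and 285 CPM peri-infarct, with library 2 of the latter apart. Its log2 fold change between regions was -0.076 in vehicle mice (95% interval -0.35 to 0.20) and -0.041 in HPBCD mice (95% interval -0.38 to 0.30). It was called lower in the peri-infarct region of HPBCD mice once library 2 was left out. Wif1, at 0.101 to 1.13 CPM, was called in no comparison. Dkk1 was not tested, at 0 to 0.152 CPM, and Dkk4 had no count in any library, which allows up to 0.135 to 0.208 CPM, counting error only.

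**Figure D4:**
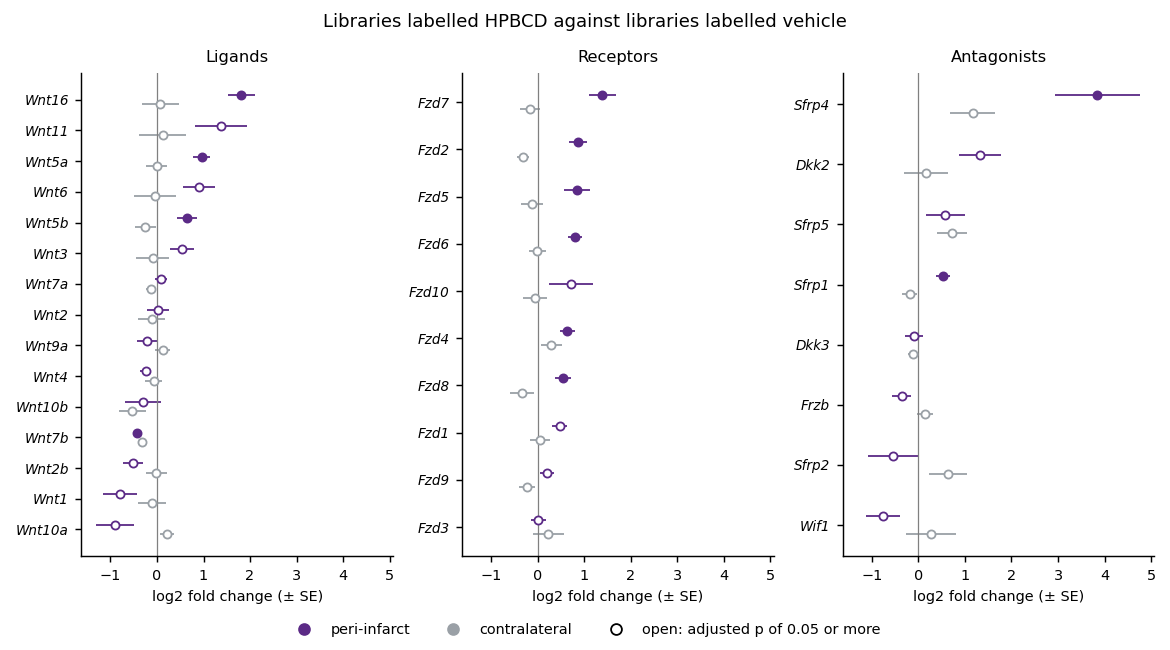
Log2 fold change (± SE) of libraries labelled HPBCD against those labelled vehicle for the 33 tested members, in the peri-infarct (purple) and the contralateral region (grey); filled points had an adjusted p under 0.05. In the contralateral region no member was called, and in the peri-infarct region Sfrp4 lies farthest to the right at 3.85.

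The calls between the treatments in the peri-infarct region depended on which libraries were compared. Leaving out 1 library at a time gave 5 to 15 called members, and 764 to 5178 called genes in all. Without HPBCD peri-infarct library 3, which held the choroid plexus markers, 5 of 33 members were called (15.2%) against 4.53% of all genes. These 5 were Fzd2, Fzd6, Fzd7, Wnt16 and Wnt5a, and the same 5 were called under all 16 alternatives. In the contralateral region the members at an unadjusted p under 0.05 in edgeR were Wnt7b (-0.32, edgeR adjusted p = 0.536), Fzd2 (-0.31, adjusted p = 0.565), Sfrp4 (1.17, adjusted p = 0.576) and Sfrp5 (0.73, adjusted p = 0.617).

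Marker genes of other cell types moved with these results. The 10 fibroblast and meninges markers, such as Col1a1, Dcn and Lum, summed to 98.6 to 443 CPM in vehicle contralateral, 174 to 505 CPM in vehicle peri-infarct, 117 to 370.5 CPM in HPBCD contralateral and 703 to 1568 CPM in HPBCD peri-infarct libraries. Of the 10, 2 were called between the regions of vehicle mice, 10 between the regions of HPBCD mice and 9 between the treatments in the peri-infarct region, all higher, and none was at the floor in every library of a group. Within the HPBCD peri-infarct group, libraries 3 and 4 had the highest sums (1568 and 1519.7 CPM). They also held the highest values of Fzd7, Fzd2, Fzd1, Fzd5, Fzd10, Wnt5a and Sfrp4. The other receptors did not follow this order. Fzd6 was highest in libraries 4 and 5 (23.5 and 17.8 CPM, against 16.1 in library 3). Fzd8 was highest in libraries 4 and 1 (9.44 and 7.83 CPM, against 6.69 in library 3). Fzd4 was highest in libraries 3 and 2 (8.09 and 8.02 CPM, against 6.63 in library 4). HPBCD contralateral library 3 (370.5 CPM) and vehicle peri-infarct library 4 (505 CPM) were the highest of their groups and held the high Sfrp4 values. Sum and Sfrp4 did not always go together: vehicle contralateral library 2 had the highest contralateral sum (443 CPM) with 1.64 CPM of Sfrp4, and vehicle peri-infarct libraries 1 and 3 (325 and 310.4 CPM) held 0.97 and 1.86 CPM. The 8 reactive astrocyte markers summed to 790.2 to 3799 CPM in vehicle and 3328 to 6731 CPM in HPBCD peri-infarct libraries, against 250.2 to 426 and 218 to 289.6 CPM contralaterally. The 7 ependyma markers summed to 7.51 to 40.4 CPM in vehicle contralateral, 24.04 to 58.6 CPM in vehicle peri-infarct, 8.93 to 14.5 CPM in HPBCD contralateral and 84.03 to 166 CPM in HPBCD peri-infarct libraries. Of the 7, 3 were called between the regions of vehicle mice, 7 between the regions of HPBCD mice and 5 between the treatments in the peri-infarct region, all higher, and 2 were at or under 3 counts in every HPBCD contralateral library. The part of these cells in the rise of the receptors, of Wnt5a, Wnt16 and Sfrp4 was not tested. The 8 striatal neuron markers were all called higher between the regions of HPBCD mice (median log2 fold change 2.42), with sums of 181 to 236 CPM contralateral and 523 to 1493 CPM peri-infarct. All 8 microglia and macrophage markers (median 1.96, 267 to 312 and 859 to 1844 CPM) and all 8 oligodendrocyte markers (median 1.23, 5629.7 to 7098 and 12827 to 19733 CPM) were called higher there as well. The share of all genes called higher in that comparison was 29.9%. Their part in the members' differences was not tested. For endothelium, the cells known to answer Wnt7a and Wnt7b at the blood-brain barrier, the summed CPM of 8 markers overlapped in all groups (209.6 to 391 CPM). Single endothelial markers did differ, 1 higher and 1 lower between the regions of HPBCD mice and 1 higher in peri-infarct libraries labelled HPBCD.

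**Figure D5:**
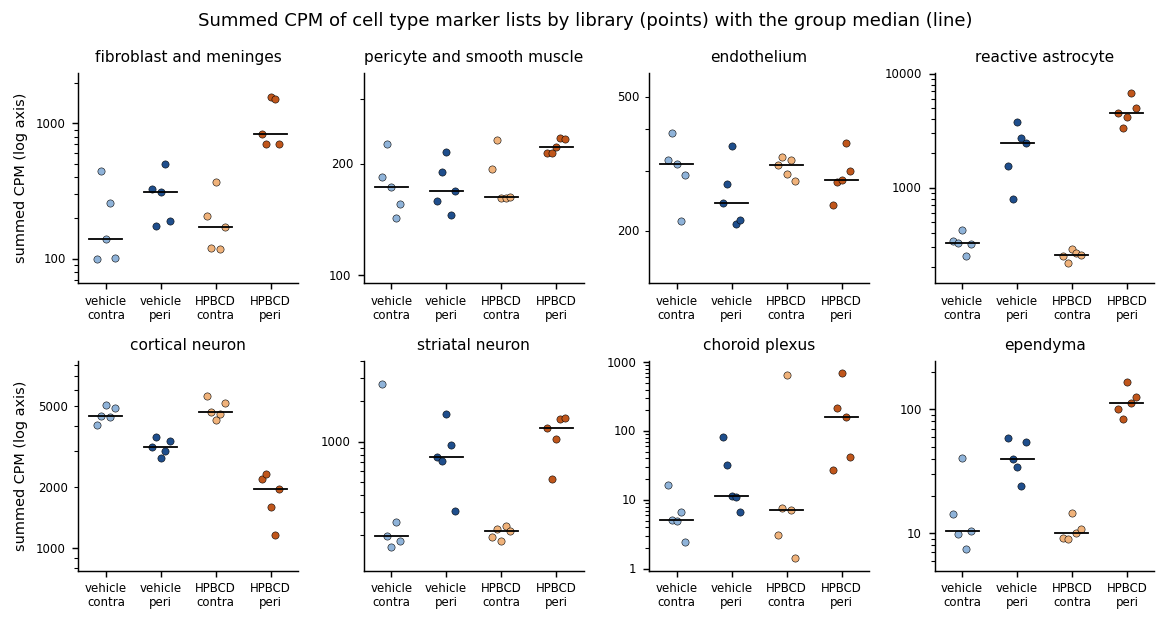
Summed CPM, on a log axis, of the markers of 8 cell types in each library (points, 5 per group) with the group median (line). Fibroblast, reactive astrocyte and ependyma markers are highest in the HPBCD peri-infarct group, cortical neuron markers are lowest there, and vehicle contralateral library 1 stands apart in striatal neuron markers at 2690 CPM.

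The other genes of the pathway were taken from a list of 68 genes, of which 65 were tested. In vehicle mice 14 of 65 were called between regions (21.5%), 9 higher and 5 lower. In HPBCD mice 47 were called (72.3%), 30 higher and 17 lower, and between the treatments in the peri-infarct region 24 (36.9%), 17 higher and 7 lower in libraries labelled HPBCD. The contralateral region gave 0 calls, with 5 at an unadjusted p under 0.05, and 0 by DESeq2, and the interaction 15 (23.1%). The shares of all genes called were those given for the members, 19.4%, 53.4%, 20.5% and 9.34%. Without HPBCD peri-infarct library 3 the count between the treatments in the peri-infarct region was 4 of 65, where 4.53% of all genes were called. Most of the calls between the treatments named below therefore ended without that library.

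Of 10 co-receptors, 8 were called higher in the peri-infarct region of HPBCD mice, where 29.9% of all genes were. They were led by Ror1 (3.67), Lrp5 (1.55), Adgra2 (1.42) and Ror2 (3.0), with edgeR adjusted p from 2.27e-06 to 2.18e-05. Ror1 and Ror2 are the tyrosine kinase receptors of Wnt5a, and Adgra2 (Gpr124) is the partner through which Wnt7 signals in endothelium. In vehicle mice Lrp5 alone was called (0.66, adjusted p = 0.0496). Across treatments in the peri-infarct region Adgra2 (1.09), Lrp6 (0.44), Ror1 (1.43) and Ryk (0.43) led the 5 called, all higher in libraries labelled HPBCD (adjusted p 0.0129 to 0.0297).

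In the secretion and R-spondin list, Wls, which carries Wnt ligands to the cell surface, rose in vehicle mice (0.57) and in HPBCD mice (1.29), and was higher in peri-infarct libraries labelled HPBCD (0.72, adjusted p = 0.0199). Rspo1, an R-spondin that amplifies Wnt signals, fell in both (-1.81, adjusted p = 0.00281, and -2.54, adjusted p = 1.91e-06), as did Lgr6 (-0.82 and -1.20). Rspo2 was called higher in vehicle mice (0.74, adjusted p = 0.0464). Rnf43, which removes Frizzled receptors from the membrane, was higher between the regions of HPBCD mice (1.52) and between the treatments (0.79), where Porcn was lower (-0.40, adjusted p = 0.0495). Of the 11 tested genes of this list 4 were called in vehicle mice, 8 in HPBCD mice and 3 between the treatments in the peri-infarct region. These are 36.4%, 72.7% and 27.3%, against 19.4%, 53.4% and 20.5% of all genes.

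Of the 8 other antagonists, 2 were called in vehicle mice, 6 in HPBCD mice and 4 between the treatments in the peri-infarct region. The shares of all genes called in these comparisons were 19.4%, 53.4% and 20.5%. Igfbp4 was lower (-0.87) and Apcdd1 higher (0.38) in vehicle mice. In HPBCD mice Dkkl1 was lower (-1.85) and Kremen1, a Dickkopf receptor, Trabd2b and Draxin were higher (0.84, 1.15 and 1.94). Trabd2b, Dkkl1, Kremen1 and Igfbp4 were called between the treatments in the peri-infarct region at 1.01, -1.18, 0.46 and 0.45 (adjusted p 0.0292 to 0.0494).

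The 18 cytoplasmic genes went both ways. In vehicle mice 1 was called higher (Ctnnb1, which encodes β-catenin, 0.34) and 2 lower (Csnk1e -0.30, Dact2 -0.59), against 10.2% and 9.23% of all genes. In HPBCD mice 7 were called higher and 9 lower, against 29.9% and 23.5%. The smallest adjusted p in HPBCD mice were those of Csnk1e (-0.66), Dact3 (-0.63), Dact2 (-1.14) and Dact1 (1.5), from 7.27e-06 to 5.93e-05. Across treatments in the peri-infarct region Nkd2 was higher (1.21) and Dact3, Gsk3a and Dact2 were lower (-0.47, -0.41 and -0.66, adjusted p 0.0143 to 0.0332). Among the 10 nuclear genes, 3 were called in vehicle and 5 in HPBCD mice, all higher, against 10.2% and 29.9% of all genes. Tcf7l2 and Tcf7l1 were higher in vehicle mice (0.65 and 0.70) with Bcl9l (0.46), and Tcf7l1, Tcf7l2 and Tcf7 were higher in HPBCD mice (1.53, 1.23 and 0.79). The same 3 TCF genes were called between the treatments in the peri-infarct region (0.62, 0.60 and 0.75, adjusted p 0.0164 to 0.035). Of the 8 planar polarity genes, Celsr1 rose in vehicle mice (0.83), Celsr1 and Vangl1 rose (1.76 and 1.77) and Prickle1 and Celsr3 fell (-0.95 and -0.33) in HPBCD mice, and Vangl1 and Celsr1 were higher and Celsr3 lower between the treatments in the peri-infarct region (1.24, 0.53 and -0.38, adjusted p 0.0128 to 0.0433).

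Of 6 genes that canonical Wnt signalling is known to induce, 1 was called between the regions of vehicle mice (Apcdd1, above), where 19.4% of all genes were called, and 5 between those of HPBCD mice, where 53.4% were. Axin2, the usual readout, was at 23.5 to 30.6 CPM in vehicle contralateral, 26.9 to 32.4 CPM in vehicle peri-infarct, 20.03 to 29.5 CPM in HPBCD contralateral and 27.8 to 35.9 CPM in HPBCD peri-infarct libraries. It was called between the regions of HPBCD mice alone, at 0.33 ± 0.11 (SE, edgeR adjusted p = 0.0227), with 0.12 in vehicle mice and 0.10 between the treatments in the peri-infarct region. Lef1 was called in no comparison (-0.25, -0.045 and 0.30 in the same order of comparisons, vehicle regions, HPBCD regions and treatments). Nkd1 (0.46, adjusted p = 0.0012), Notum (0.65, adjusted p = 0.0317) and Apcdd1 (0.63, adjusted p = 0.00725) were higher in the peri-infarct region of HPBCD mice. Sp5 was scarce, at 0.04995 to 0.533 CPM in HPBCD contralateral and 0.6596 to 1.44 CPM in HPBCD peri-infarct libraries, and rose by 2.34 (adjusted p = 0.00146). None of these 6 genes was called between the treatments in the peri-infarct region. The 6 are a chosen set and do not stand for all target genes. Of the 65 pathway genes, which include the 6, 17 were called higher and 7 lower there. Nkd2 (1.21), Rnf43 (0.79) and Tcf7 (0.75) were among the higher ones.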

How the data were processed

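RNA was measured in 20 libraries, 5 per group, with groups read from the titles. Stranded mRNA libraries were sequenced as read pairs by the authors, who trimmed them with Trimmomatic 0.32, aligned them with STAR 2.5.2b to GRCm38 and used htseq-count for each gene. What was deposited by the authors is a table of raw counts per Ensembl gene for each library, not normalized. Neither the annotation release nor the strand option was given in the sources used here. Of 46078 genes, 45229 (98.16%) were found in GENCODE M21, which held 99.933% of gene counts. The 5 lines that name no gene were left out, and among all read pairs held 4.39% to 9.50% without a feature, 3.94% to 8.03% ambiguous and 16.6% to 24.3% not uniquely aligned. Both upper ends, 9.50% and 8.03%, came from HPBCD contralateral library 4, against at most 5.86% and 4.16% in the other libraries. It also had the lowest gene counts, 14445021. No tables were identical.

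Genes with at least 10 counts in at least 5 libraries entered edgeR 4.0.16 and its quasi-likelihood F test (R 4.3.3, TMM factors, Benjamini-Hochberg adjustment, threshold 0.05), on the 10 libraries of a comparison, or all 20 with a region by treatment term for the interaction. SE is the log2 fold change divided by the square root of F. The script was tested on simulated data. Members and lists were chosen with earlier results of these data known. Members called in any comparison, and the 3 with the highest level per kb in each role, are given by library; of other pathway genes, up to 4 called per list and comparison with the smallest adjusted p, plus 6 known target genes.

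Libraries of a treatment with the same number came from the same animal (10 of 10 animals). Their deviations from the group means, on log2(CPM + 0.5), correlated by 0.11 on average (-0.12 to 0.37, over 0.1 in 5 of 10 pairs). Alternatives were DESeq2 1.42.0, RLE size factors, other filters, the animal as a block, all 20 libraries in 1 fit, and leaving out libraries. Read pairs carry no molecular identifiers, so floors cover counting error only.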

Additional observations from a re-analysis of the deposited data

Results flagged for a closer look

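The region difference was unequal between the treatments, by the edgeR interaction test, for 3 members: Wnt16 (1.74, adjusted p = 0.0362), Fzd7 (1.56, adjusted p = 0.0234) and Fzd2 (1.18, adjusted p = 0.0156), all with a more positive difference in HPBCD mice. Among the other pathway genes named here it was more positive in HPBCD mice for Rnf43 (1.33), Nkd2 (1.31), Vangl1 (1.30), Adgra2 (1.21), Celsr1 (0.90), Tcf7l1 (0.82), Wls (0.70), Ptk7 (0.66) and Lrp6 (0.46). It was more negative for Dkkl1 (-1.39), Prickle1 (-0.58), Btrc (-0.56), Dact3 (-0.53) and Csnk1e (-0.38). Adjusted p ran from 0.0166 (Adgra2) to 0.0478 (Prickle1).

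In 11 of the 104 groups of 5 libraries that the 26 fully described members give, 1 library lay far from the other four. For independent, normally distributed values about 1 in 20 such groups would hold one. The groups here share the same libraries, so no excess over that rate can be read from the count. HPBCD contralateral library 3 was high for Fzd1 (14.8 CPM), Fzd2 (16.6 CPM), Sfrp1 (14.7 CPM) and Sfrp4 (6.63 CPM). Vehicle contralateral library 1 was low for Fzd9 (4.90 CPM) and Wnt4 (16.5 CPM). HPBCD peri-infarct library 2 was high for Dkk3 (473 CPM) and low for Wnt9a (10.6 CPM). In the vehicle peri-infarct group, library 4 was high for Sfrp4 (32.1 CPM), library 1 was high for Wnt11 (1.84 CPM) and library 3 held 0 CPM of Sfrp2.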

How the results depend on the processing

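Of the 44 member differences that were called, 44 stayed called with DESeq2 and with RLE size factors, 39 with no filter on low counts, and 32 after the 3 libraries with the highest striatal or choroid plexus sums were left out, an alternative chosen after seeing the data. None of the 44 changed sign under an alternative, nor did any of the 67 member differences with an unadjusted p under 0.05. Of all 165 differences (33 members in 5 comparisons), 36 changed sign under at least 1 alternative, 12 of them between the vehicle regions and 16 between the treatments contralaterally. Their log2 fold changes with all libraries were at most 0.86 in size (Wnt11 between the vehicle regions), and unadjusted p was at least 0.194. Between the treatments in the peri-infarct region, 12 members and 24 other pathway genes were called. Those counts were 5 and 4 without the 3 libraries, and 5 to 15 and 4 to 31 when 1 library at a time was left out. For the interaction, 3 members and 15 other pathway genes were called, against 1 and 0 without the 3 libraries and 2 to 9 and 3 to 26 when 1 library at a time was left out. DESeq2 called 8 members for the interaction (24.2%, against 14.9% of all genes), adding Fzd6, Fzd8, Sfrp1, Wnt5a and Wnt5b. Between the regions of vehicle mice 7 members and 14 other pathway genes were called, and 5 to 9 and 5 to 16 when 1 library at a time was left out. In HPBCD mice, where 22 and 47 were called, the ranges were 21 to 23 and 40 to 48. With the animal as a replicate block, which applies to the comparisons of regions and the interaction, the interaction called 7 members (21.2%, against 10.8% of all genes, with Fzd5, Fzd8, Sfrp1 and Sfrp4 added), the vehicle call of Sfrp1 was lost, and calls were gained for Fzd8 in vehicle mice and for Fzd4 in HPBCD mice. The causes were not tested. A level under 3 counts, 0.135 to 0.208 CPM, could not be read at this depth.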

Other observations

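Wnt8b, which was below the count minimum, reached 2.99 CPM in vehicle peri-infarct library 3 and 1.27 CPM in vehicle contralateral library 1, and lay between 0 and 0.337 CPM in the other 18 libraries. Dkk3 was highest (473 CPM) and Wnt9a lowest (10.6 CPM) in HPBCD peri-infarct library 2, which also had the highest sum of 6 hippocampal markers (472 CPM against 68.7 to 221 in the other libraries). The part of that tissue in both values was not tested.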
